A study of Mus musculus with 12 samples.

Results

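The microglia genes described here were 48 genes known from mouse microglia, the resident macrophages of the brain, with Trem2 at their centre. Their members were chosen by name, and every transcript of the deposited count table that maps to a member gene in the GENCODE M21 annotation of GRCm38 was taken. The table held 71 such transcripts, out of 48033 in all, and they belonged to 31 of the 48 genes. No value of the table was used to choose them, although earlier results of these data were known when the list was made.

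Total RNA came from the hippocampus and the cerebral cortex of 7-month-old mice on a C57BL/6J background, and ribosomal RNA was depleted before stranded libraries were made. There were 3 libraries in each of the 4 groups of WT or 5×FAD mice and hippocampus or cortex. 5×FAD mice carry human transgenes with familial Alzheimer's disease mutations, and elements of the neuronal gene Thy1 drive their expression. WT mice were their non-transgenic counterparts. Both regions were taken from each mouse, but the labels do not say which libraries share a mouse. Libraries are named here by region, genotype and the number in their label.

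TREM2 is a receptor on the microglial surface that binds lipids and lipoproteins such as apolipoprotein E, and it signals through the adaptor TYROBP and the kinase SYK. The phosphatase INPP5D (SHIP1) acts against this signal. Microglia near amyloid deposits are known to take up a disease-associated state in which Trem2, Apoe, Lpl, Cst7, Itgax and Clec7a are raised and homeostatic genes such as P2ry12 and Tmem119 are lowered. PU.1, encoded by Spi1, and IRF8 are transcription factors that microglia need.

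The rows of the table were not the mRNAs of these genes. Of the 71 transcripts, 40 were annotated as retained-intron and 31 as processed transcripts, and none as protein-coding. Retained-intron transcripts held 21731 of the 24729 counts of all members. A median of 50.8% of the bases of a retained-intron transcript, and 34.2% of a processed transcript, lay outside the exons of the coding transcripts of its gene. In 7 transcripts no base lay outside them, and in 28 transcripts at least 50% did. Whether reads of the spliced mRNAs were counted on these rows was not tested. There were 17 genes with no row in the table analysed here: Tyrobp, Plcg2, Cst7, Csf1r, Cx3cr1, P2ry12, P2ry13, Tmem119, Gpr34, Siglech, C1qa, C1qb, Itgb2, Ctss, Ctsz, Ly86 and Dock8. The main markers of homeostatic microglia were thus absent, and the cell type could not be checked with them.

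The Trem2 transcript with nearly all of its gene's counts, ENSMUST00000132340, lies on the plus strand at chr17:48346440-48354147 of GRCm38. It has 4784 bases in 4 exons. It keeps the whole first intron of the coding transcript ENSMUST00000024791, 1861 bases long, and runs 1874 bases past the end of the coding transcripts. The sequences below show where the counted transcript and the mRNA part, 40 exon bases in lower case beside 60 intron bases in capitals, at chr17:48346556-48346655 and chr17:48348397-48348496. The spliced mRNA joins the same exons directly. The transcript sequences are written 5′ to 3′ from the GENCODE M21 transcripts.
Trem2 exon into intron: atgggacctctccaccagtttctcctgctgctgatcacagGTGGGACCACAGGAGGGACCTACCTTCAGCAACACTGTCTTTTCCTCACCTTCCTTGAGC
Trem2 intron into exon: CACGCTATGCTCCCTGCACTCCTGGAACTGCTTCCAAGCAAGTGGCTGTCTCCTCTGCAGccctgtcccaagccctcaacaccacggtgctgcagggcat
Trem2 spliced mRNA: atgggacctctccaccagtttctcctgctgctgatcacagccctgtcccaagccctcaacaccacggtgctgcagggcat

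**Figure D1:**
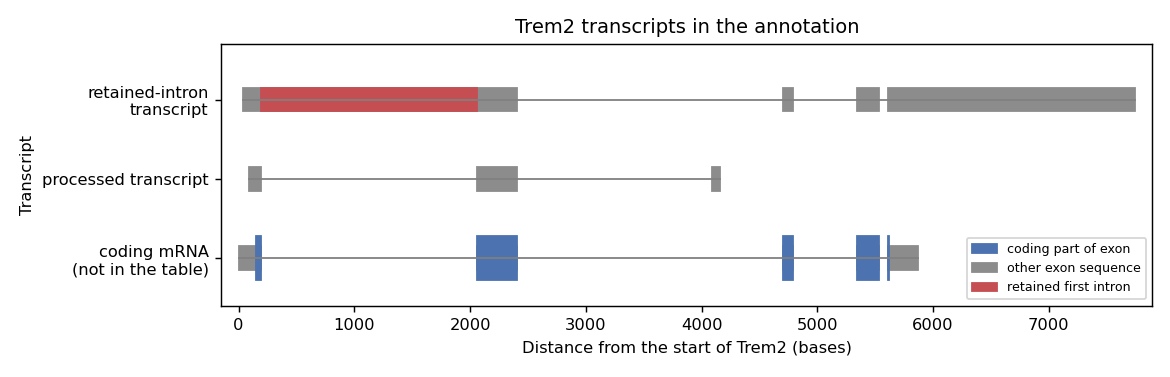
Map of Trem2 transcripts in the annotation. The horizontal axis is the distance in bases from the start of the gene, blue boxes are coding exon parts, grey boxes are other exon sequence and the red box is the first intron (1861 bases) that the counted retained-intron transcript keeps. The coding mRNA is shown for comparison and has no row in the table.

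A further 3 genes stood out in 1 or both regions below, and their transcripts are shown in the same way. Irf8 ENSMUST00000162775 (plus strand, window chr8:120739952-120740051) continues from a coding exon into the intron after it. Dock2 ENSMUST00000154178 (minus strand, window chr11:34438215-34438314) does the same at its 3′ end. Unc93b1 ENSMUST00000161415 (plus strand, window chr19:3942634-3942733) starts in the middle of the gene and keeps an intron of 251 bases. Capitals again mark intron bases.
Irf8 exon into intron: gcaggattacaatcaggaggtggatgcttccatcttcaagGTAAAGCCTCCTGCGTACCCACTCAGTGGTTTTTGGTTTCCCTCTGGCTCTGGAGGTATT
Dock2 exon into intron: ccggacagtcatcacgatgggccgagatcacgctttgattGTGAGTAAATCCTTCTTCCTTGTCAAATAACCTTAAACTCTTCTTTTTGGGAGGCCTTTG
Unc93b1 intron into exon: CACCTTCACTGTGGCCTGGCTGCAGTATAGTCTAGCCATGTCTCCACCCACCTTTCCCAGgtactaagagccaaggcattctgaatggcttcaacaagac
These transcripts differ in how much of them lies outside the coding exons, in introns or past the ends of the coding transcripts. In the Irf8 transcript 93.5% of the bases lay outside the coding transcripts' exons, against 78.1% in Trem2 ENSMUST00000132340, 25.2% in the Dock2 transcript and 15.05% in the Unc93b1 transcript.

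Libraries held between 3517967 and 5014389 counts, so that 3 counts, taken as the smallest detected amount, corresponded to between 0.598 and 0.853 CPM (the usual unit of counts scaled to library size). That floor covers counting error only. Values below are CPM scaled by the TMM method, given for single transcripts or for gene sums, in which all rows of a gene were added. Of the 71 transcripts, 2 had 0 counts everywhere and 46 had at most 120 counts over the 12 libraries. Hippocampal markers, 3 of 6 with a row (Zbtb20, Calb1, Lhx9), summed to 117 to 139 CPM in the hippocampus and 32.2 to 57.7 CPM in the cortex. The cortical markers Tbr1, Cux2, Rorb and Lamp5, 4 of 6 with a row, summed to 48.2 to 71.4 CPM and 75.9 to 137 CPM. Both sums thus matched the region labels. Zbtb20 held 3869 counts over the 12 libraries, against 391 for Calb1 and 117 for Lhx9. The log2 difference of hippocampus minus cortex was only 0.25 (standard error 0.22) for Calb1.

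The libraries labelled 5×FAD 3 stood apart from the other 5×FAD libraries in both regions. Xist, the RNA of the inactive X chromosome, had between 30468 and 46630 counts in 5×FAD 1 and 5×FAD 2 and at most 25 counts in the other 8 libraries. Y-linked genes had 0 counts in the former and 1074 to 1661 counts in the latter, while the series gives each genotype 2 females and 1 male. Thy1 stood at 105 to 145 CPM in 5×FAD 1 and 5×FAD 2 and at 36.1 and 39.1 CPM in 5×FAD 3, against 30.3 to 45.9 CPM in WT. Sex and genotype cannot be told apart in 5×FAD 1 and 5×FAD 2. Fold changes of the genes described below are therefore in many cases given without these libraries too. A lone 5×FAD library is then compared with 3 WT libraries and is assumed to vary as they do. That library, 5×FAD 3, lay near WT in Xist, Y-linked and Thy1 counts, and whether it carries the transgenes was not tested. Such a fold change may therefore not show an effect of genotype.

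All members together were more abundant in 5×FAD 1 and 5×FAD 2 than in any WT library of the same region. In the hippocampus, the members' gene sums added up to 328, 416 and 345 CPM in WT 1, 2 and 3 and to 675, 767 and 346 CPM in 5×FAD 1, 2 and 3. In the cortex, they added up to 435, 423 and 251 CPM in WT against 845, 670 and 352 CPM in 5×FAD. Without Trem2 and Apoe, the 2 members with the most counts, the sums were 196 to 294 CPM in WT against 317, 464 and 236 CPM in 5×FAD of the hippocampus. The same sums in the cortex were 208 to 268 CPM in WT against 495, 416 and 246 CPM in 5×FAD. The 5×FAD 3 libraries therefore lay within the range of WT in each of these sums. In such bulk tissue, more microglia and more RNA per cell cannot be told apart, and neither was tested. The libraries with the higher sums were also those with high Xist counts, in which sex and genotype cannot be told apart.

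No member passed the adjusted threshold of 0.05 in the comparison of 5×FAD with WT. Of the 31 gene sums, 18 passed the filter on low counts in the hippocampus and 18 in the cortex, and 0 were called in either region by the quasi-likelihood F test of edgeR after Benjamini-Hochberg adjustment. Over all gene sums tested, 0.0529% were called in the hippocampus and 0.0175% in the cortex. DESeq2 called 1 member in the hippocampus (Trem2) and 2 in the cortex (Dock2 and Unc93b1), and it called 0.732% and 0.465% of all genes. At an unadjusted p under 0.05, 6 members were higher and 0 lower in 5×FAD of the hippocampus. Over all genes, 4.83% were higher and 3.86% lower. In the cortex, 7 members were higher and 1 was lower at that threshold, against 3.43% and 3.24% over all genes. The median log2 fold change of the members tested was 0.72 in the hippocampus and 0.81 in the cortex, beside 0.03 and -0.001 over all genes. A gene can pass the filter through the group in which it is high, so these shares and medians are descriptions. Of all 31 genes with a row, tested or not, the mean CPM was higher in 5×FAD for 26 and lower for 4 in the hippocampus, and again for 26 and 4 in the cortex. These include genes with few counts, and the share over all genes with a row was not computed. Of the 18 members tested in each region, 17 had a log2 fold change above 0, beside 53.1% and 49.9% of all genes tested.

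Single transcripts were also counted. Of the 71, 25 were tested in the hippocampus and 26 in the cortex, and 0 were called by edgeR in either, beside 0.0183% and 0.0545% of all transcripts. DESeq2 called 1 (of Trem2) and 2 (of Dock2 and Unc93b1), beside 0.58% and 0.464% of all transcripts. On simulated counts, edgeR called none of the transcripts made to differ between genotypes, and a large part of the transcripts that DESeq2 called were false, so neither count says much about single transcripts. At an unadjusted p under 0.05, 5 were higher and 0 lower in the hippocampus, where 4.08% and 3.5% of all transcripts were. In the cortex, 5 were higher and 2 lower, against 2.88% and 2.45% of all transcripts.

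**Figure D2:**
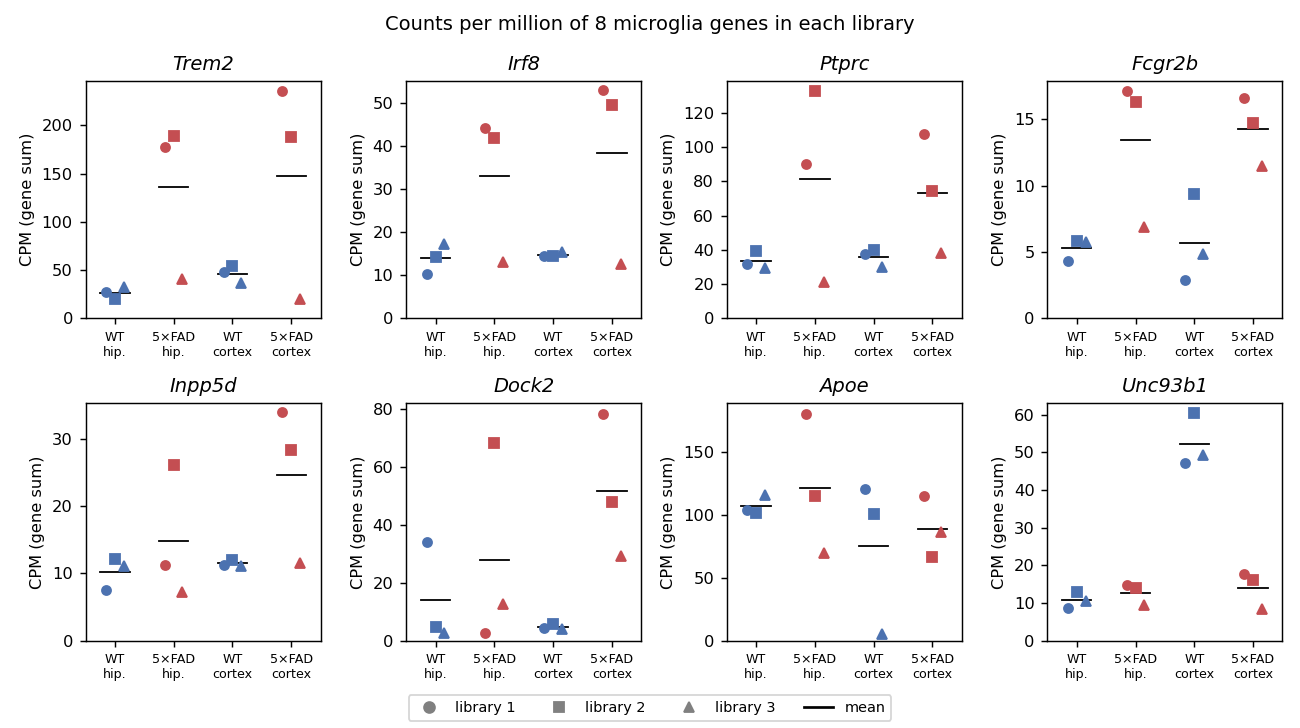
CPM of 8 member genes (sum over the rows of each gene, vertical axis) in each of the 12 libraries, by genotype and region. Symbols give the library number, blue is WT, red is 5×FAD and black lines are group means. In Trem2, Irf8 and Ptprc the red circles and squares lie far above WT and the red triangle lies near WT, and in Unc93b1 the 3 cortical WT libraries (47.3 to 60.4 CPM) lie apart from all others.

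Trem2 showed the largest difference of the members in the hippocampus. The retained-intron transcript ENSMUST00000132340 had 128, 84 and 142 counts in hippocampus WT 1, 2 and 3 against 693, 808 and 164 in 5×FAD 1, 2 and 3. In the cortex it had 201, 248 and 121 counts in WT against 1044, 686 and 81 in 5×FAD. All 3 hippocampal 5×FAD libraries were above all WT libraries, the third only slightly, whereas in the cortex 5×FAD 1 and 2 were above and 5×FAD 3 below every WT library. The other Trem2 row, processed transcript ENSMUST00000148545, had at most 21 counts in any library.

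The Trem2 gene sum was 26.7 CPM ± 6.57 (SD, n = 3) in WT and 136 ± 82.5 (n = 3) in 5×FAD of the hippocampus. Its log2 fold change of 2.38 (standard error 0.55) had an adjusted p of 0.464 by edgeR's quasi-likelihood test. In the cortex, it was 46.4 CPM ± 8.85 (SD, n = 3) in WT and 147 ± 113 (n = 3) in 5×FAD. There the log2 fold change was 1.65 (standard error 0.75), with an adjusted p of 0.747 by edgeR. Without 5×FAD 3, the log2 fold changes were 2.81 and 2.17, with adjusted p of 0.0192 in the hippocampus and 0.0447 in the cortex by the same test. Without 5×FAD 1 and 2, they were 0.64 in the hippocampus and -1.22 in the cortex. Over the alternative fits, the adjusted p lay between 0.00157 and 0.867 in the hippocampus and between 0.0447 and 0.885 in the cortex.

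Trem2's partners in signalling had smaller fold changes. Inpp5d, the opposing phosphatase, had a gene sum of 7.57, 12.1 and 11.03 CPM in hippocampus WT against 11.2, 26.1 and 7.17 CPM in 5×FAD. Its cortical level was 11.3, 12.0 and 11.1 CPM in WT against 33.9, 28.3 and 11.5 CPM in 5×FAD. Only 5×FAD 2 stood out in the hippocampus, and 5×FAD 1 and 2 in the cortex. The log2 fold change in the cortex was 1.09 (standard error 0.39, unadjusted p = 0.0267, adjusted p = 0.728, edgeR), and it was -0.001 without 5×FAD 1 and 2. In the hippocampus it was 0.57 (standard error 0.48). Syk, the kinase downstream of the receptor, had log2 fold changes of 0.38 (standard error 0.27) in the hippocampus and 0.40 (standard error 0.43) in the cortex. The kinase Lyn passed the filter only in the cortex, with a log2 fold change of 0.18. Tyrobp and Plcg2, the adaptor and a phospholipase of the pathway, had no row.

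Among genes of the disease-associated state, Lpl, which encodes lipoprotein lipase, had no gene sum of a 5×FAD library below the WT range in either region. Its gene sum was 8.22, 10.2 and 8.04 CPM in hippocampus WT against 15.9, 9.09 and 19.8 CPM in 5×FAD, with 1 5×FAD library inside the WT range. The level in cortex was 6.48, 7.42 and 3.99 CPM in WT against 15.05, 12.8 and 10.6 CPM in 5×FAD, so the groups did not overlap. Log2 fold changes were 0.80 (standard error 0.33) and 1.08 (standard error 0.30), with adjusted p of 0.568 and 0.722 by edgeR. They were 1.20 and 0.81 without 5×FAD 1 and 2. The rows of the gene differed in the hippocampus. The log2 fold change was 1.08 (standard error 0.38) for ENSMUST00000213071 and 0.28 (standard error 0.44) for ENSMUST00000101463. The latter had 17, 21 and 14 counts in WT there against 29, 12 and 15 in 5×FAD.

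Apoe, the apolipoprotein that is also a ligand of TREM2, had the most counts of all members and did not separate the genotypes. Its gene sum was 104, 102 and 116 CPM in hippocampus WT against 180, 115 and 69.7 CPM in 5×FAD. In the cortex it was 121, 101 and 5.42 CPM in WT against 115, 66.5 and 86.2 CPM in 5×FAD. The groups overlapped in both regions, and cortex WT 3 was far below every other library. Log2 fold changes were 0.23 (standard error 0.33) and 0.23 (standard error 0.84). Astrocytes are known to make this apolipoprotein too.

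Axl, a receptor tyrosine kinase that clears dying cells, had 1 library apart as well. Hippocampus WT 2 had 104 CPM, against 12.98 and 16.5 CPM in the other WT libraries and 14.7, 33.3 and 35.8 CPM in 5×FAD. Almost all of this came from ENSMUST00000132989, with 453 counts in that library and between 4 and 110 in the other 11. Cortical values were 9.41 to 19.0 CPM in WT and 16.3 to 26.3 CPM in 5×FAD. Clec7a, Itgax and Cd9 had at most 16 counts in any library, and the single row of Cd84 had 0 everywhere.

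Irf8 was high in the same libraries as Trem2. Its gene sum was 10.4, 14.3 and 17.2 CPM in hippocampus WT against 44.3, 42.0 and 13.1 CPM in 5×FAD. In the cortex, it was 14.4, 14.6 and 15.4 CPM in WT against 53.0, 49.6 and 12.6 CPM in 5×FAD. In both regions 5×FAD 1 and 2 were above all WT libraries and 5×FAD 3 was not. Log2 fold changes were 1.29 (standard error 0.46) in the hippocampus and 1.36 (standard error 0.50) in the cortex, with adjusted p of 0.532 and 0.728 by edgeR. Without 5×FAD 3, they were 1.66 and 1.78, and the cortical one had an adjusted p of 0.0447, in a range of 0.0447 to 0.912 over the alternatives. Without 5×FAD 1 and 2, they were -0.05 and -0.23. Spi1, which encodes PU.1, had at most 8 counts in any library.

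Dock2 showed the largest difference in the cortex. DOCK2 is an activator of the GTPase RAC in blood-derived cells and microglia. ENSMUST00000154178 had 10, 15 and 4 counts in cortex WT against 327, 158 and 121 in 5×FAD, and the groups were far apart. In the hippocampus it had 156, 12 and 9 counts in WT against 8, 277 and 43 in 5×FAD, so that high and low libraries occurred in both genotypes. A second row, ENSMUST00000157036, did not separate the genotypes in the cortex. It held 7, 11 and 9 counts in cortex WT and 20, 16 and 5 in 5×FAD, with 5×FAD 3 the lowest. For this row edgeR put the cortical change at 0.58 on the log2 scale, with a standard error of 0.55. The cortical difference of the gene sum thus came mainly from ENSMUST00000154178. The gene sum in the cortex was 4.73 CPM ± 1.02 (SD, n = 3) in WT and 51.9 ± 24.7 (n = 3) in 5×FAD. The log2 fold change was 3.43 (standard error 0.41), with an unadjusted p of 6.68e-05 and an adjusted p of 0.127 by edgeR. DESeq2 gave an adjusted p of 3.5e-11, and the range over the alternatives reached 0.67. The log2 fold change was 2.62 without 5×FAD 1 and 2, and 3.71 without 5×FAD 3, when the adjusted p was 0.0268 by edgeR. In the hippocampus, the log2 fold change was 1.04 (standard error 1.22).

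Unc93b1 was the only member that was lower in 5×FAD with an unadjusted p under 0.05, and only in the cortex. UNC93B1 brings nucleic-acid-sensing Toll-like receptors to the endosome. Its transcript ENSMUST00000161415 had 151, 213 and 137 counts in cortex WT against 52, 28 and 19 in 5×FAD. In the hippocampus it had 15, 30 and 31 counts in WT against 21, 33 and 22 in 5×FAD. All 3 cortical 5×FAD libraries were below all WT libraries, 5×FAD 3 included, whereas the hippocampal groups overlapped. The gene sum in the cortex was 52.3 CPM ± 7.10 (SD, n = 3) in WT and 14.0 ± 5.05 (n = 3) in 5×FAD. Its log2 fold change was -1.91 (standard error 0.30, unadjusted p = 3.78e-04, adjusted p = 0.274, edgeR), and it stayed between -2.66 and -1.64 over the alternative fits. DESeq2 gave an adjusted p of 1.37e-05, and the highest adjusted p of the alternatives was 0.871. The second row of the gene, ENSMUST00000162193, had 46, 64 and 36 counts in cortex WT against 27, 31 and 17 in 5×FAD. Its log2 fold change was -0.94 (standard error 0.33).

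Ptprc, which encodes the leukocyte phosphatase CD45, is also made by other blood cells. Its 8 rows summed to 31.6, 39.1 and 29.4 CPM in hippocampus WT against 90.1, 133 and 21.01 CPM in 5×FAD. In the cortex they summed to 37.4, 39.7 and 30.2 CPM in WT against 108, 74.3 and 38.4 CPM in 5×FAD. In the hippocampus 5×FAD 1 and 2 were above all WT libraries and 5×FAD 3 below them, and in the cortex 5×FAD 1 and 2 were above and 5×FAD 3 inside the WT range. Log2 fold changes were 1.32 (standard error 0.57) and 1.03 (standard error 0.36), with adjusted p of 0.571 and 0.726 by edgeR. They were -0.63 and 0.10 without 5×FAD 1 and 2. Lymphocyte markers summed to at most 2.30 CPM in any library and S100a8, the 1 neutrophil marker of 5 with a row, to at most 2.88 CPM. Of 7 lymphocyte markers, 6 had a row, and Cd3g, Cd8a and Ms4a1 were at 0 in all libraries.

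Fcgr2b, the inhibitory Fc receptor, had an unadjusted p under 0.05 in both regions. Its gene sum was 4.33, 5.83 and 5.75 CPM in hippocampus WT against 17.2, 16.3 and 6.92 CPM in 5×FAD. Its cortical level was 2.88, 9.38 and 4.85 CPM in WT against 16.6, 14.7 and 11.5 CPM in 5×FAD. Every 5×FAD library was above every WT library of its region. Log2 fold changes were 1.38 (standard error 0.40) and 1.30 (standard error 0.43), with adjusted p of 0.526 and 0.725 by edgeR, and 0.42 and 0.99 without 5×FAD 1 and 2. The activating receptor gene Fcgr3 was higher by 1.53 on the log2 scale (standard error 0.58, adjusted p = 0.540, edgeR) in the hippocampus, where 5×FAD 3 had 46 of its counts and no other library had more than 22. Without 5×FAD 3 it was 0.85. Both genes are uncertain, since Fc receptor genes are similar in sequence, and whether reads were split among them was not tested.

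The Siglec receptor gene Cd33 had 5.52 to 6.92 CPM in hippocampus WT against 7.71, 10.95 and 2.72 CPM in 5×FAD. The level in cortex was 6.24, 7.86 and 7.13 CPM in WT against 17.5, 11.4 and 8.28 CPM in 5×FAD, where all 5×FAD libraries were above WT. The log2 fold change there was 0.80 (standard error 0.33, unadjusted p = 0.0448, adjusted p = 0.740, edgeR), and it was 0.22 without 5×FAD 1 and 2. In the hippocampus it was -1.18 without them. Among the complement genes, only C1qc had a row, with 2 to 20 counts per library. Fcer1g and Itgam had at most 7 counts in any library.

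Of the 3 homeostatic genes tested, Selplg had the largest fold changes and Olfml3 and Mertk had small ones. Olfml3, a secreted protein typical of microglia, had 40.4 to 52.2 CPM in WT and 50.2 to 51.7 CPM in 5×FAD of the hippocampus, and 39.9 to 70.5 CPM and 48.7 to 72.2 CPM in the cortex. Its log2 fold changes were 0.24 (standard error 0.18) and 0.14 (standard error 0.27). Mertk, a receptor for the uptake of dying cells, had log2 fold changes of 0.10 (standard error 0.58) and 0.05 (standard error 0.30). Selplg, the P-selectin ligand of leukocytes, had 3.89, 7.56 and 5.52 CPM in hippocampus WT against 8.96, 15.6 and 8.40 CPM in 5×FAD. Its cortical values were 5.52, 7.42 and 5.13 CPM in WT against 14.6, 10.6 and 6.90 CPM in 5×FAD, with 5×FAD 3 inside the WT range. Its log2 fold changes were 0.998 (standard error 0.38) and 0.81 (standard error 0.35), with adjusted p of 0.540 and 0.740 by edgeR, and 0.61 and 0.19 without 5×FAD 1 and 2.

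**Figure D3:**
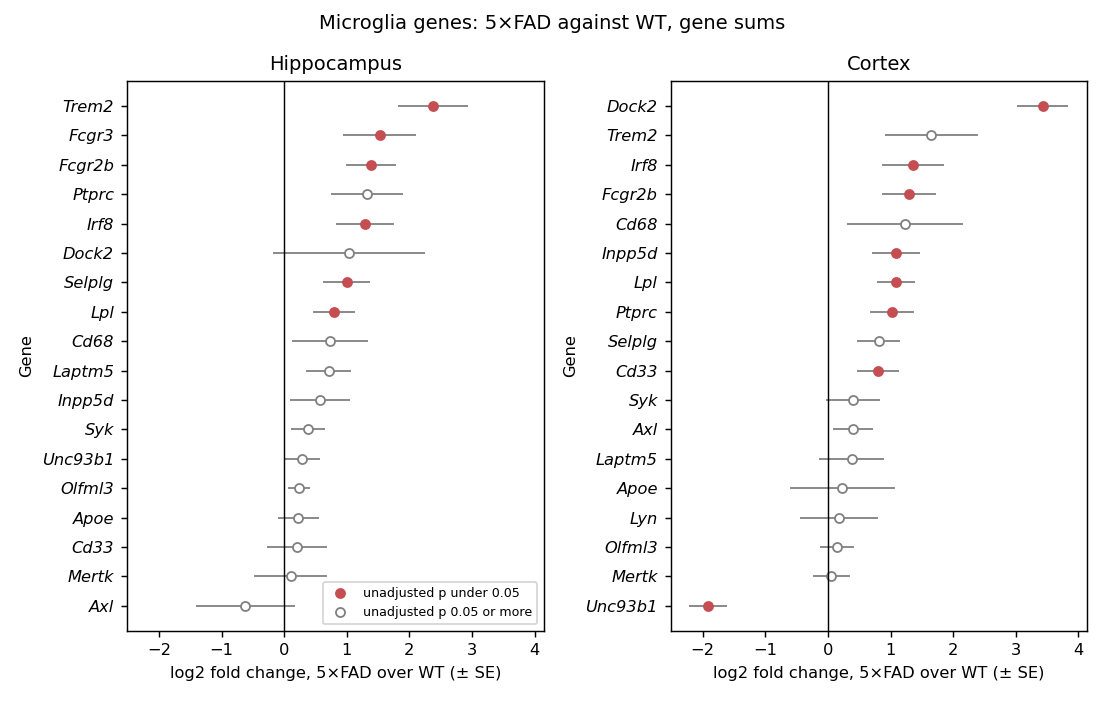
Log2 fold change of 5×FAD over WT (horizontal axis, bars are ± 1 standard error) for the member genes that passed the filter, 18 in each region. Filled points had an unadjusted p under 0.05 by edgeR, 6 in the hippocampus and 8 in the cortex, and no gene passed after adjustment.

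Groups without overlap were counted as a second description. In the hippocampus, 4 of 18 members (Fcgr2b, Laptm5, Selplg and Trem2) were higher in every 5×FAD library than in any WT library, and 0 were lower. Over all genes, 8.17% were higher and 8.19% lower in this way. In the cortex, 4 of 18 (Cd33, Dock2, Fcgr2b and Lpl) were higher, beside 6.44% of all genes, and 1 (Unc93b1) was lower, beside 6.58%. Laptm5 encodes a lysosomal membrane protein of blood cells, and its gene sums were 1.94 to 2.76 CPM in hippocampus WT and 3.21 to 4.48 CPM in 5×FAD.

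Single 5×FAD libraries differed in how many members exceeded all 3 WT libraries. In the hippocampus, 12 of 18 did so in 5×FAD 1, 15 in 5×FAD 2 and 8 in 5×FAD 3, when 34%, 31.4% and 32.5% of all genes did. In the cortex, 13, 13 and 5 of 18 did so, against 24.7%, 26% and 26.9% of all genes. The median log2 ratio of the members to the WT mean was 0.49, 0.89 and 0.29 in hippocampus 5×FAD 1, 2 and 3, and 1.10, 0.70 and 0.11 in cortex 5×FAD 1, 2 and 3. The count in cortex 5×FAD 3 was therefore close to that of all genes.

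**Figure D4:**
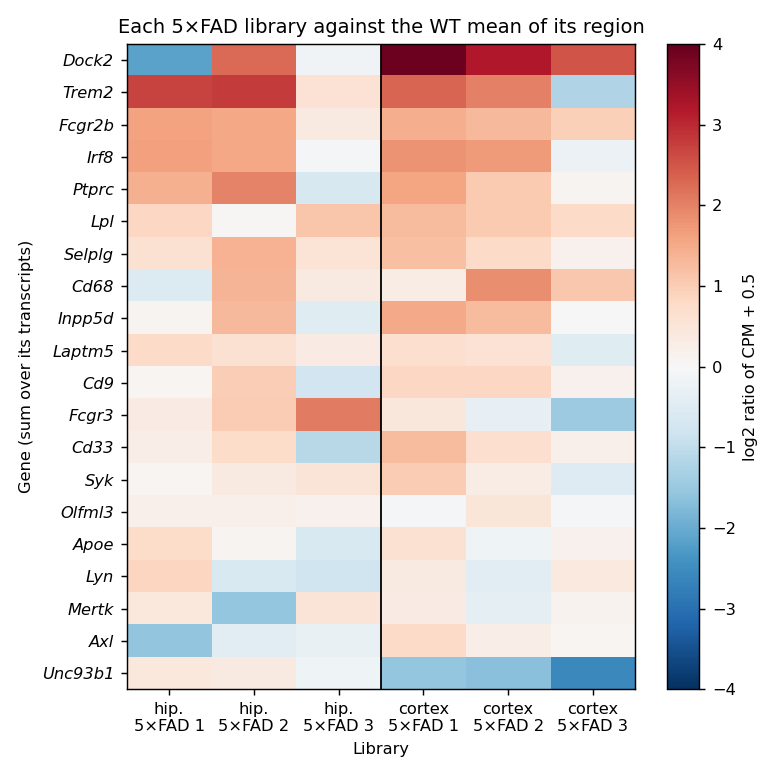
Log2 ratio of each 5×FAD library (columns) to the WT mean of its region, on CPM + 0.5, for the 20 member genes tested over all 12 libraries (rows, ordered by their mean). Red is higher and blue lower than WT. Trem2, Irf8 and Ptprc are red in libraries 1 and 2 of both regions and pale or blue in library 3, and Unc93b1 is blue in all 3 cortical libraries.

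Markers of other cell types also differed between these libraries. Astrocyte markers, 7 of 8 with a row, summed to 1517 to 1594 CPM in hippocampus WT against 625, 565 and 1238 CPM in 5×FAD 1, 2 and 3, with Slc1a3 holding most of the counts and Gfap at 0 to 7 counts. In the cortex they summed to 1001 to 1652 CPM in WT and 1003 to 1580 CPM in 5×FAD. Oligodendrocyte markers, 5 of 7 with a row, summed to 352 to 444 CPM in WT and 508 to 590 CPM in 5×FAD of the hippocampus. In the cortex they summed to 299 to 478 CPM in WT and 546 to 620 CPM in 5×FAD, so the groups did not overlap in either region. Neuronal markers, 7 of 8 with a row, summed to 1577 to 3499 CPM in hippocampus WT and 1803 to 7175 CPM in 5×FAD, and to 1622 to 2875 CPM and 1392 to 3214 CPM in the cortex. Over all libraries, Gad1 ranged from 76 to 9574 counts and Slc17a7 from 970 to 14888. Hippocampal log2 fold changes were 1.80 for Slc17a7, 0.97 for Gad1, 0.59 for Gad2 and 0.41 for Rbfox3. They were -0.26 for Snap25, -0.33 for Syt1 and -0.36 for Map2. Border macrophages share many of the member genes. Their own markers, 7 of 8 with a row and Lyve1 at 0, summed to 40.9 to 47.95 CPM in WT and 40.8 to 58.8 CPM in 5×FAD of the hippocampus, and to 45.1 to 51.9 CPM and 35.0 to 50.3 CPM in the cortex. Stab1 held most of these counts, with 2113 over the 12 libraries against at most 96 (Cd163) in any other. It alone passed the filter in the hippocampus, so these sums describe mainly 1 gene. Endothelial markers, 3 of 5 with a row, stood at 12.4 to 30.6 CPM in all libraries. Choroid plexus markers, 2 of 5 with a row and Folr1 at 0, stood at 6.72 to 47.0 CPM in the hippocampus and 1.63 to 10.8 CPM in the cortex. The part of these cell types in the members' values was not tested.

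Other genes of the same biology were read from a list of 82 further microglial genes in 4 groups, namely disease-associated, homeostatic, receptor signalling, and complement and immune receptor genes. Of these, 49 had a row, 27 were tested in the hippocampus and 31 in the cortex, and 0 were called by edgeR in either region. At an unadjusted p under 0.05, 3 were higher and 0 lower in the hippocampus, where 4.83% and 3.86% of all genes were. In the cortex 3 were higher and 1 lower, against 3.43% and 3.24% of all genes. The complement gene C4b, also made by astrocytes and oligodendrocytes, was among them in both regions, with log2 fold changes of 1.67 (standard error 0.33) and 1.36 (standard error 0.57). The others were Grn, the gene of the lysosomal protein progranulin, at 1.02 and the adaptor gene Lat2 at 1.23 in the hippocampus. In the cortex they were the MHC gene H2-K1 at 0.91, the cholesterol-transport gene Npc2 at 0.92 and, lower in 5×FAD, the phospholipase gene Plcg1 at -2.20. Without 5×FAD 1 and 2, the log2 fold changes were 1.41 for C4b, 0.23 for Grn and 0.79 for Lat2 in the hippocampus. They were then 1.64 for C4b, 0.50 for H2-K1, 0.51 for Npc2 and -2.74 for Plcg1 in the cortex. The medians of the 4 groups lay between 0.14 and 1.41 in the hippocampus and between -0.003 and 0.57 in the cortex.

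An interaction term over all 12 libraries compared the genotype effect of the hippocampus with that of the cortex. Of 20 member gene sums, 0 were called by edgeR, and 0% of all genes were. DESeq2 called 1 (Unc93b1), beside 0.19% of all genes. At an unadjusted p under 0.05, 1 of the 20 differed, beside 7.01% of all genes. This was Unc93b1, with a difference of 2.16 on the log2 scale (standard error 0.42, unadjusted p = 2.79e-04, adjusted p = 0.647, edgeR), the hippocampal effect being the higher. Over the alternatives, this difference lay between 1.92 and 2.51. For Trem2, the difference was 0.70 (standard error 1.01). Of 30 member transcripts, 0 were called, beside 0.00812% of all transcripts. DESeq2 called 1 (of Unc93b1), beside 0.402%. By edgeR, 2 transcripts, both of Unc93b1, had an unadjusted p under 0.05, beside 6.89% of all transcripts.

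The levels of the members in the 2 regions were compared with genotype as a covariate. Of 19 gene sums, 0 were called by edgeR, whereas 6.97% of all genes were, and DESeq2 called 1 (Unc93b1), beside 9.9% of all genes. At an unadjusted p under 0.05, 3 members differed, and 19% of all genes did. The log2 difference of hippocampus minus cortex was -1.24 for Unc93b1 (standard error 0.39, adjusted p = 0.0851, edgeR), a difference carried by the WT libraries. It was -1.61 for Cd68, a lysosomal protein of phagocytes (standard error 0.62, adjusted p = 0.164, edgeR). Cd68 had 0 counts in cortex WT 3, against 33 to 84 in the other cortical and 6 to 30 in the hippocampal libraries. Without cortex WT 3 it was called by edgeR, as were 5.88% of all genes. Its adjusted p was then 0.0176, in a range of 0.0176 to 0.425 over the alternatives. Fcgr3 was higher in the hippocampus by 1.53 (standard error 0.62). Of 29 transcripts, edgeR called 0, against 2.82% of all transcripts, and DESeq2 called 1 (of Unc93b1), against 5.36%. By edgeR, 3 had an unadjusted p under 0.05, against 13.7% of all transcripts.

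Per length of transcript and averaged over the 12 libraries, Apoe stood highest with 113 CPM per kb. Axl followed with 22.2, Trem2 with 20.3, Unc93b1 with 18.9, Irf8 with 15.7, Ptprc with 13.1 and Olfml3 with 13.01 CPM per kb. The order from Axl to Olfml3 lies within the spread over libraries of Trem2 alone, from 6.20 to 49.9 CPM per kb. The other members were at most at 10.9 CPM per kb. These means pool groups that differ. Trem2 had means of 6.56 and 11.1 CPM per kb in WT of hippocampus and cortex against 31.4 and 32.2 in 5×FAD. Unc93b1 had 40.1 CPM per kb in cortex WT and 10.2 to 12.9 in the other groups. The Axl mean includes hippocampus WT 2, whose level stood apart as described above.

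PU.1 binds DNA at a core written GAGGAA, which was searched on both strands in the RefSeq promoter windows of GRCm38.p6. These hold 250 bases before and 50 after each gene's start. Of the 48 genes, 36 matched, with 44 windows. The motif was found in 24 of these windows (54.5%), belonging to 21 genes, and in 9289 of all 32851 windows (28.3%). Such a match is a description and not a binding site. The window of Trem2 held it 1 time, on the opposite strand, and neither of the 2 windows of Irf8 did. The 250 bases before the start of Trem2, at chr17:48346151-48346400 on the plus strand, are shown because Trem2 led the members in the hippocampus, with the motif in capitals.
Trem2 promoter: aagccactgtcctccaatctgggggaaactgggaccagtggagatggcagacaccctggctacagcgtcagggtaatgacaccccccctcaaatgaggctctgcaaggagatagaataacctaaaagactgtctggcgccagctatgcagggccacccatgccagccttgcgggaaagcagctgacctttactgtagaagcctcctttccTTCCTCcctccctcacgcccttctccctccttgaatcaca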

How the data were processed

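Long RNA of hippocampus and cerebral cortex was sequenced in 12 libraries. The authors deposited whole-number counts per transcript without normalization. Per the labels, ribosomal RNA was removed with DNA probes and RNase H, libraries were stranded and paired-end, and Trimmomatic 0.36 and edgeR were used. The aligner, counting program, build and annotation are not given in the sources used here, and 225 identifiers were not found in GENCODE M21. All 12 count columns were used and 0 were left out.

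The count tests were run in edgeR 4.0.16 under R 4.3.3 (filterByExpr, TMM, glmQLFit, glmQLFTest, Benjamini-Hochberg adjustment over all features, threshold 0.05), per transcript and as sums over the rows of each gene or assembled locus. Genotypes were compared within a region, and the interaction and the regions over all 12 libraries. The standard error was the log2 fold change divided by the square root of F. Both tests were run on simulated counts, in which only features with many counts were made to differ, and by large fold changes. Between genotypes, edgeR recovered 51% of such genes in the hippocampus and 68.5% in the cortex, but no such transcript. DESeq2 recovered more of both. Of the genes called, 8.11% and 8.05% were false by edgeR and 17.4% and 18.3% by DESeq2, more than the threshold allows. Members with fewer counts or smaller fold changes were not covered. Alternatives were other scalings and filters, DESeq2 1.42.0, blocks, 1 joint fit and leaving out libraries. Leaving out both 5×FAD 3 libraries, and 5×FAD 1 and 2 for the further genes, was added after the data were seen. Counting noise did not account for the spread within groups (chi-square per degree of freedom of 20.8 to 33.0 in 12 pairs). Separate mice were used within a group.

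The members, role groups, marker and gene lists were chosen with earlier results of these data known. Trem2, Tyrobp and Apoe, every member with an adjusted p under 0.05 in any comparison or an unadjusted p under 0.05 between genotypes, and the 2 members with most counts in each role group were named by rule. Syk, Lyn, Cd68, Laptm5 and the genes with few counts were named after their values were seen. Figures and sequences used Python 3.11.15 and pandas 2.3.3.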

Additional observations from a re-analysis of the deposited data

Results flagged for a closer look

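Axl was singled out because every hippocampal 5×FAD library lay below the WT mean of its region and every cortical 5×FAD library lay above it. As an interaction term it came to -1.06 on the log2 scale (standard error 0.97, unadjusted p = 0.296, adjusted p = 0.857 by edgeR's quasi-likelihood test), so it did not pass. The hippocampal WT mean rests on WT 2, with 104 CPM against 12.98 and 16.5 CPM in WT 1 and WT 3.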

How the results depend on the processing

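The number of members called was 0 in all 8 comparisons by edgeR with every scaling tried, without a filter on low counts and in the joint fit. With DESeq2 in place of edgeR it was 1 in the hippocampus and 2 in the cortex, both for gene sums and for transcripts. The number was then 1 in the interaction and 1 between regions. DESeq2 called 0.19% to 9.9% of all genes and 0.402% to 5.36% of all transcripts in these comparisons. With at least 10 counts in every library 1 transcript was called between regions (Unc93b1 ENSMUST00000161415), beside 5.03% of all transcripts. Leaving out 1 library gave 0 to 1 gene sums in the hippocampus, beside 0% to 0.29% of all genes. In the cortex it gave 0 to 3 (Dock2, Irf8 and Trem2 without 5×FAD 3), beside 0.00848% to 0.154%, the highest share being without 5×FAD 3. Between regions it gave 0 to 1 gene sums, beside 5.06% to 7.88% of all genes, and 0 to 1 transcripts, beside 1.72% to 3.06%. Without both libraries of 5×FAD number 3, 1 gene sum was called between regions (Unc93b1), beside 7.27% of all genes. The cause was not tested.

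The number of member gene sums higher in 5×FAD at an unadjusted p under 0.05 ranged from 2 to 7 in the hippocampus and from 1 to 10 in the cortex over all alternatives, the lowest cortical value being that without 5×FAD 1 and 2. Of all genes, 2.99% to 7.33% and 2.81% to 3.77% were higher in these fits.

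Directions turned mainly without 5×FAD 1 and 2. In the hippocampus the log2 fold change of gene sums was then -1.18 for Cd33, -0.11 for Dock2, -0.47 for Inpp5d, -0.053 for Irf8, -0.63 for Ptprc and -0.15 for Unc93b1. For transcripts it was -0.27 for Dock2 ENSMUST00000154178, -0.36 for Unc93b1 ENSMUST00000162193, -0.034 for Unc93b1 ENSMUST00000161415, -0.43 for Inpp5d ENSMUST00000164592, -0.35 for Ptprc ENSMUST00000182138 and -0.80 for Ptprc ENSMUST00000187586. In the cortex it was -0.0013 for Inpp5d, -0.23 for Irf8, -1.22 for Trem2 and -1.30 for Trem2 ENSMUST00000132340. Without hippocampus 5×FAD 2 it was -0.24 for Cd33, -0.82 for Dock2, -0.11 for Inpp5d, -1.01 for Dock2 ENSMUST00000154178, -0.05 for Unc93b1 ENSMUST00000161415 and -0.013 for Inpp5d ENSMUST00000164592. Without hippocampus WT 1 it was -0.14 for Unc93b1 ENSMUST00000161415. The highest values of the same results on leaving out 1 library were 0.58 for Cd33, 2.91 for Dock2, 0.90 for Inpp5d, 3.46 for Dock2 ENSMUST00000154178, 0.34 for Unc93b1 ENSMUST00000161415 and 1.03 for Inpp5d ENSMUST00000164592.

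The labels do not tie a library number to a mouse. Same-numbered libraries of the 2 regions of 1 genotype had correlations of 0.006 to 0.132 and others -0.106 to 0.058, and not every library correlated best with its own number, so the numbers were not taken as pairs. In each region, 5×FAD 3 was the only 5×FAD library with Y-linked counts (1074 in the hippocampus and 1276 in the cortex). If both regions came from the same mice, its 2 libraries therefore share a mouse. For the other numbers, whether same-numbered libraries came from 1 mouse is not known from these data. With the number as a replicate block, 0 members were called in any comparison, beside 0% to 4.32% of all genes. Within a region, this block tied WT and 5×FAD libraries of the same number, which are different mice, so it was not a block on the mouse. In those fits 4 gene sums in the hippocampus and 6 in the cortex were higher at an unadjusted p under 0.05, beside 3.92% and 2.81% of all genes. With 3 libraries a group, members with few counts could be compared only coarsely, and 13 of the 31 genes were not tested in each region.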
